A study of Mus musculus with 9 samples.

Results

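The 10 genes described here encode the core and deadenylase subunits of the CCR4-NOT complex: Cnot1, Cnot2, Cnot3, Cnot6, Cnot6l, Cnot7, Cnot8, Cnot9, Cnot10 and Cnot11. They were chosen by name and matched by symbol among the 57010 genes of the count table. All 10 were among the 13680 genes that had over 10 reads in each of the 9 embryos and so entered the tests. Cnot3 is the gene targeted for deletion, so these genes show how the mRNAs of the other subunits stood in cortices with fewer Cnot3 reads. Between 6.82% and 44.9% of the Ctrl mean of Cnot3 remained in the 6 mutant embryos.

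CCR4-NOT is a large assembly of proteins that trims the tail of adenosines at the end of an mRNA, after which the message tends to be translated less and broken down. CNOT1 is the scaffold to which the other subunits bind. CNOT2 and CNOT3 form the NOT module, which carries no enzyme activity and which, through CNOT3, links the complex to slowly translating ribosomes. CNOT9 is a docking site for adaptor proteins, and CNOT10 and CNOT11 bind the opposite end of the scaffold from the NOT module. The poly(A) tail is removed by nucleases of separate families, CNOT7 or CNOT8 (the CAF1 type) and CNOT6 or CNOT6L (the CCR4 type). A complex holds either member of each of these pairs.

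RNA sequencing was done on cortical tissue dissected from single E12.5 mouse embryos, with 3 Ctrl, 3 cKO and 3 dcKO embryos. The Ctrl embryos are labelled WT, and the labels do not say whether they carried floxed alleles or Cre. In cKO embryos both Cnot3 alleles were floxed and Emx1-Cre was present. In dcKO embryos both Cnot3 alleles and both Trp53 alleles were floxed, again with Emx1-Cre. Emx1-Cre is active in radial glial cells (RGCs) of the dorsal telencephalon and in their progeny, so blood, vessel, meningeal and microglial cells of the tissue keep both genes. The exons that Cre removes from Cnot3 or Trp53 are not given in the sources used here. The comparisons ask which subunit mRNAs differ once Cnot3 is deleted, and whether the additional loss of Trp53 changes their levels.

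The counts are whole reads per gene, from 21193798 to 45073349 reads per embryo. Levels are given as CPM, reads per 1000000 reads of the library after trimmed-mean (TMM) scaling of the library sizes. The 3 dcKO embryos stood apart from each other more than the embryos of the other groups did. Over all tested genes the median coefficient of variation (SD divided by mean) of CPM was 11.2% in Ctrl, 11.2% in cKO and 36.4% in dcKO. Trp53, the second deleted gene, was at 237, 254 and 215 CPM in Ctrl, at 167, 164 and 167 in cKO, and at 15.1, 110.4 and 20.6 in dcKO. The dcKO embryo replicate 2 thus kept 46.9% of the Ctrl mean of Trp53, where the other dcKO embryos kept 6.41% and 8.76%. With 44.9% of the Ctrl mean of Cnot3 as well, this embryo goes in part against its label, so its genotype and the extent of its dissection are in doubt and were not tested here. The dcKO means and intervals below include it, and the log2 fold change of each of the 10 genes against Ctrl is also given without it. Reads of Xist were counted in 4 of the 9 embryos, and replicate 2 was the only one of them among the dcKO embryos. All 9 markers of dorsal telencephalon and radial glia were in the table, and their summed level was between 3344 and 4277 CPM in Ctrl, between 3139 and 3517 in cKO and between 3344 and 3949 in dcKO. Within that list, Vim was at 1159 to 1496 CPM in Ctrl and at 1659 to 2030 in cKO, while Nes (1030 to 1085 and 568 to 753), Lhx2 (467 to 854 and 275 to 317) and Hes5 (22.03 to 37.8 and 6.75 to 10.9) were lower in every cKO than in every Ctrl embryo. All 9 embryos were tested in 1 model with edgeR's quasi-likelihood test, and a gene was called where its Benjamini-Hochberg adjusted p was below 0.05 and its log2 fold change exceeded 1 in size. Since that model shares 1 estimate of the spread, the dcKO embryos also widen the errors of the comparison of cKO with Ctrl. A fit with the 6 embryos compared is given beside it.

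Cnot3 and the subunits next to it were also the targets of the study's RT-qPCR assays, whose primers mark where in each mRNA those assays read. They are shown here 5′ to 3′ and in lower case, because they fix which exons of Cnot3, Cnot2 and Cnot1 a bench measurement would compare with the reads over whole genes. Positions are from a match of each primer to the GENCODE M21 transcripts on GRCm38, and each primer matched transcripts of 1 gene only.
Cnot3 forward: ggcgacaaggataagcagga
Cnot3 reverse: ttgtccagcattcgcaggat
Cnot2 forward: cttcttcaccttgtcggcct
Cnot2 reverse: gattgcagccagcttatccc
Cnot1 forward: cctacattccagcagaccga
Cnot1 reverse: ggttggatgtggtgggtgat

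The Cnot3 pair lies in coding sequence on the plus strand. Its forward primer spans the junction of exons 7 and 8 of an 18-exon transcript (chr7:3652117-3653207 including the intron) and its reverse primer lies in exon 8 (chr7:3653272-3653291), for an amplicon of 104 bases. The Cnot2 pair covers exon 12 (chr10:116494970-116494989) and the junction of exons 13 and 14 (chr10:116493782-116494830 including the intron) of a 16-exon transcript, an amplicon of 92 bases. The Cnot1 pair covers the junction of exons 19 and 20 (chr8:95753147-95754995 including the intron) and exon 20 (chr8:95753041-95753060) of a 49-exon transcript, an amplicon of 126 bases. Both primers of a pair matched 1 of 4 annotated coding transcripts of Cnot3, 6 of 8 of Cnot2 and 2 of 5 of Cnot1, so an assay need not read every isoform. Cnot2 and Cnot1 are on the minus strand. The counts analysed here are sums over all exons, so no value below is specific to an amplicon.

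In Ctrl cortex every subunit mRNA was detected at a level that varied little between embryos. Levels of different genes were compared as RPKM, CPM per kilobase of the union of a gene's exons in GENCODE M21. Cnot9 was the highest at 46.2 ± 0.0826 RPKM and Cnot6l the lowest at 4.84 ± 0.151 (mean ± SD, n = 3 here and for the levels that follow). Between them stood Cnot6 at 44.5 ± 1.06, Cnot8 at 31.9 ± 0.237, Cnot2 at 28.9 ± 1.88 and Cnot1 at 23.8 ± 2.57 RPKM. They were followed by Cnot11 at 20.4 ± 0.493, Cnot7 at 18.2 ± 1.11, Cnot3 at 15.1 ± 1.34 and Cnot10 at 11.7 ± 0.217 RPKM. No neighbours in this order overlapped between the 3 embryos. The order depended on the length used. With the length of the longest transcript in place of the union of exons, 4 of the 10 genes kept their rank (Cnot9, Cnot6, Cnot10 and Cnot6l), and 3 of the 9 neighbouring pairs overlapped. Cnot1 then stood next below Cnot6 at 48.6 ± 5.27 RPKM, because its union of exons is 17169 bases and its longest transcript 8390 bases. The overlapping neighbours were Cnot6 and Cnot1, Cnot8 and Cnot2, and Cnot7 and Cnot3. By either length, the scaffold Cnot1 did not stand above all of its partners at the mRNA level, and Cnot6 exceeded its paralog Cnot6l.

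**Figure D1:**
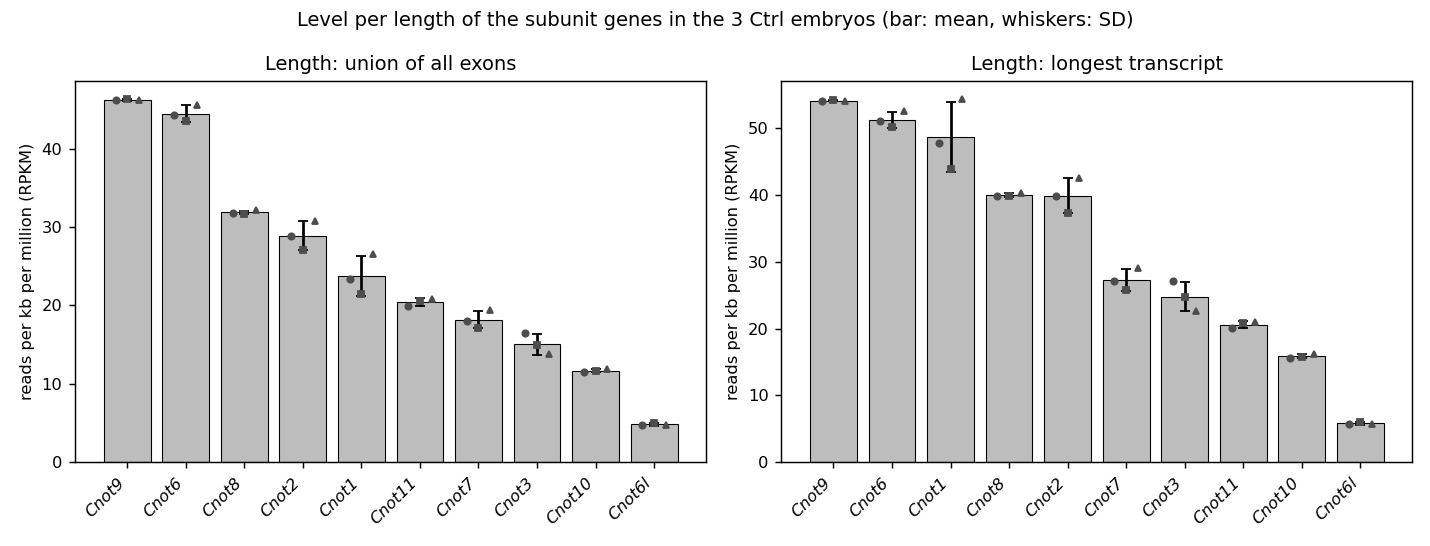
Level per length (RPKM, y axis) of the 10 genes in the 3 Ctrl embryos, with bars for the mean, whiskers for the SD and points for embryos, using the union of exons (left) or the longest transcript (right). Cnot9 is the highest and Cnot6l the lowest in both panels, and Cnot1 moves from 23.8 RPKM, below Cnot2, to 48.6 RPKM, just below Cnot6.

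The spread between embryos was small in Ctrl and cKO and large in dcKO. The coefficient of variation of the 10 genes ran from 0.179% (Cnot9) to 10.8% (Cnot1) in Ctrl and from 0.822% (Cnot6l) to 13.4% (Cnot11) in cKO. In dcKO it ran from 6.42% (Cnot8) to 84.7% (Cnot3), and 7 of the 10 genes exceeded 20%, where none did in Ctrl or cKO. The medians of the 10 genes were 2.77%, 5.04% and 32.5%. Among the dcKO embryos replicate 2 had the highest level of 7 genes and replicate 3 the lowest level of 7 genes.

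**Figure D2:**
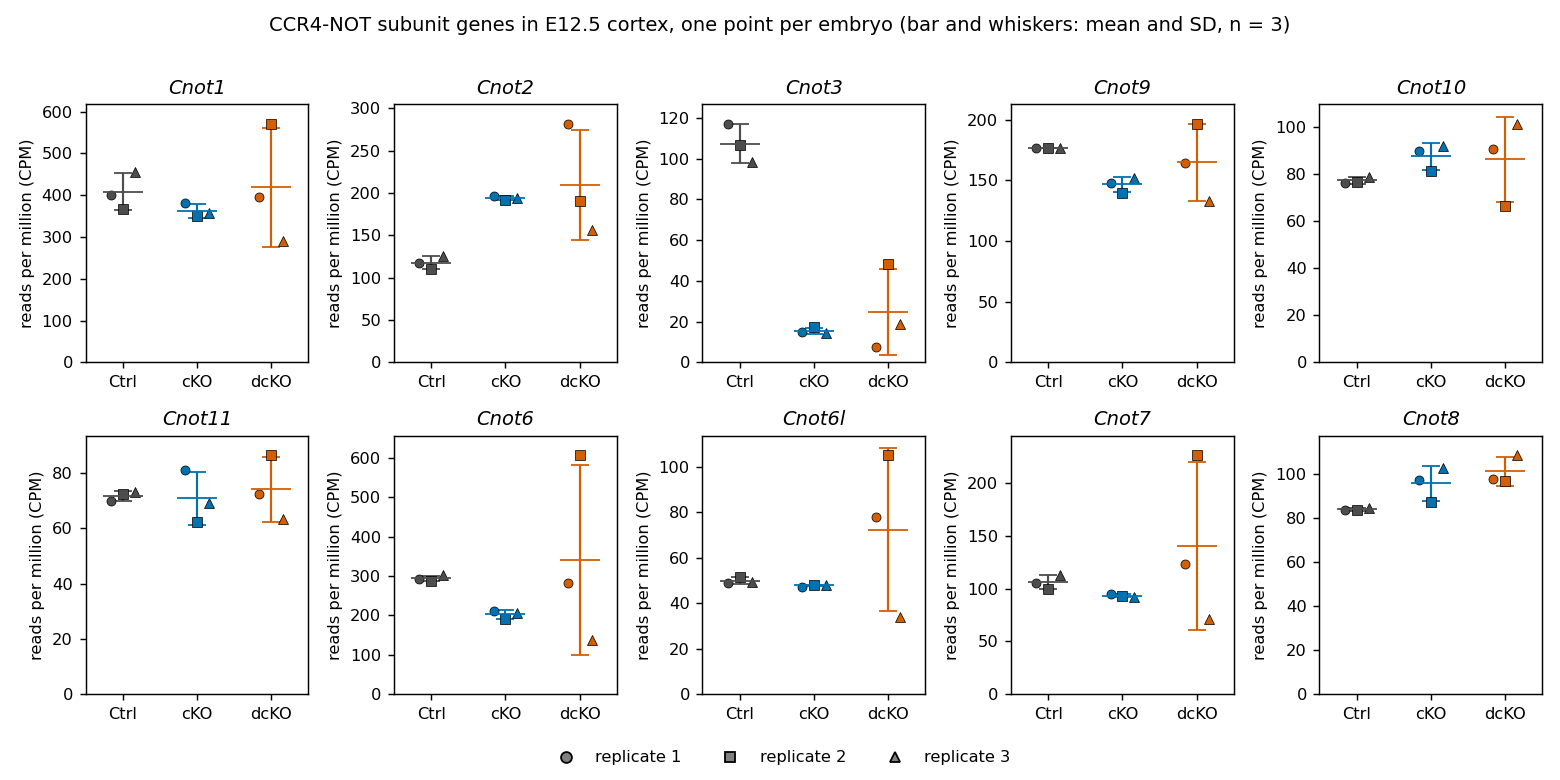
Level in CPM (y axis) of each gene in the 3 Ctrl, 3 cKO and 3 dcKO embryos, with 1 point per embryo, a bar at the mean and whiskers for the SD. Cnot3 is below and Cnot2 above every Ctrl embryo in all 6 mutant embryos, while Cnot6, Cnot6l and Cnot7 spread from below to above Ctrl within dcKO.

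Across all 10 genes, edgeR called none in cKO against Ctrl, where it called 0.0146% of the tested genes. In dcKO against Ctrl it again called none of the 10, and 0.0% of the tested genes. Between dcKO and cKO it called none of the 10 and 0.0146% of the tested genes. At an unadjusted p under 0.05 the count was 2 of 10 in cKO (Cnot2 and Cnot3), 2 of 10 in dcKO (the same genes) and 0 of 10 between the mutants. The share of all tested genes at that level was 27.0%, 29.2% and 4.42%. DESeq2 on the same genes and with the same thresholds called Cnot3 in each mutant against Ctrl, beside 8.82% of the tested genes in cKO and 8.46% in dcKO, and none of the 10 between the mutants, beside 0.38%. In edgeR without dcKO replicate 2 the only call among the 10 genes was Cnot3, in cKO and in dcKO. The median log2 fold change of the 10 genes was -0.12 in cKO and 0.19 in dcKO, and the medians over all tested genes were 0.00975 and 0.11. Because of that shift of all genes in dcKO, a log2 fold change of about 0.11 there equals the middle of the transcriptome. The smallest two-sided p of an exact permutation test with 3 embryos against 3 is 0.1, so such a test of a single gene could not pass the threshold. Both mutants were compared with the same 3 Ctrl embryos. Between dcKO and cKO the embryos overlapped for each of the 10 genes, with adjusted p-values in edgeR from 0.889 to 0.998, so with all 9 embryos no difference between the mutants was detectable beyond this spread.

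**Figure D3:**
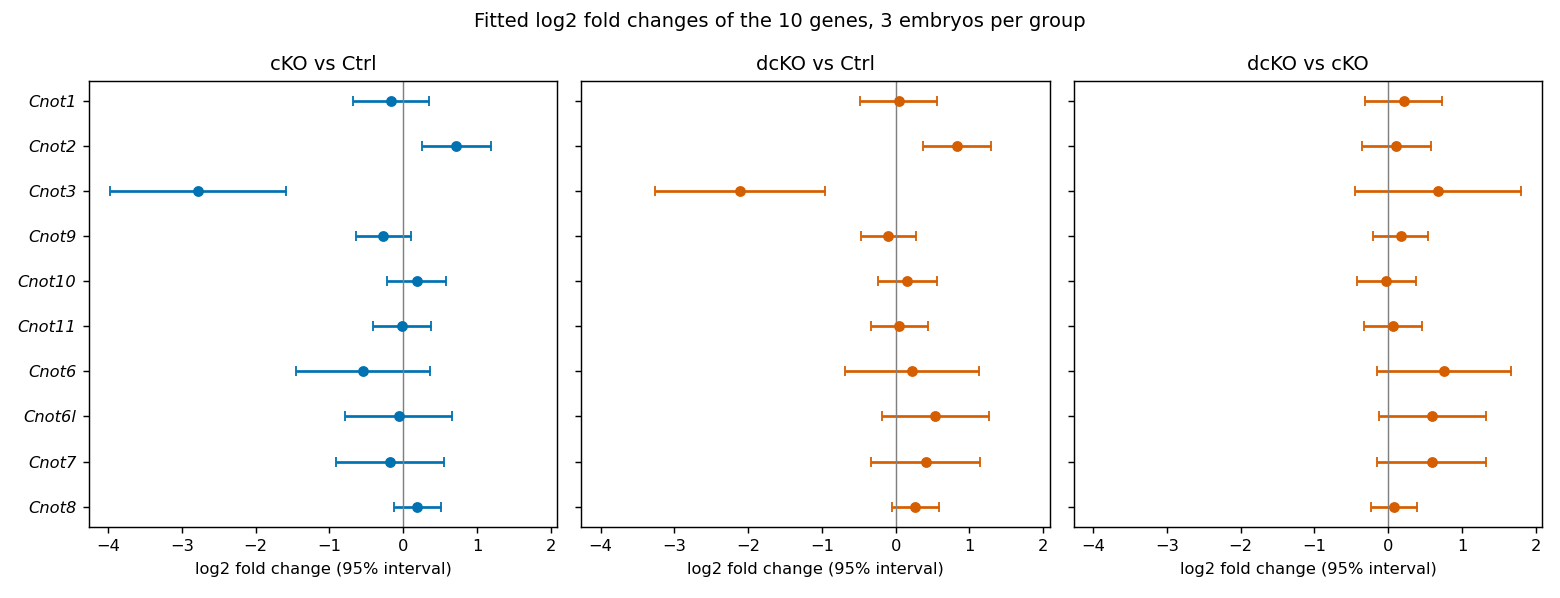
Fitted log2 fold change (x axis, point) and its 95% interval (line) for each gene in cKO vs Ctrl, dcKO vs Ctrl and dcKO vs cKO. The intervals of Cnot2 and Cnot3 leave out 0 in both comparisons with Ctrl, and no interval leaves out 0 between dcKO and cKO.

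Cnot3 (ENSMUSG00000035632.17, chr7:3645268-3661109, plus strand) was the subunit mRNA furthest from Ctrl in both mutants. It was at 117, 107 and 98.2 CPM in Ctrl, at 15.0, 17.3 and 14.6 in cKO and at 7.33, 48.2 and 19.0 in dcKO. Every mutant embryo was below every Ctrl embryo, and the dcKO embryos differed from each other by 6.58-fold. In cKO the mean was 14.5% of Ctrl, with a log2 fold change of -2.78 ± 0.53 (SE; 95% interval -3.97 to -1.60) and an adjusted p in edgeR of 0.0509, just above the threshold. With the 6 embryos compared, edgeR gave an adjusted p of 2.3e-06, and DESeq2 over 9 embryos gave 1.22e-05. Leaving out any 1 of the dcKO embryos also put Cnot3 of cKO past the threshold in edgeR, with adjusted p-values of 0.00836, 0.00313 and 0.00593, and leaving out a Ctrl or cKO embryo did not (0.130 to 0.211). In dcKO the mean was 23.1% of Ctrl, with a log2 fold change of -2.11 ± 0.52 (95% interval -3.27 to -0.95) and adjusted p-values of 0.0529 in edgeR, 0.201 in edgeR with the 6 embryos compared and 0.00119 in DESeq2. Without dcKO replicate 2 that change was -3.04 with an adjusted p in edgeR of 0.00308.

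The dcKO embryo with the most Cnot3, replicate 2, was also the one with the most Trp53. It kept 44.9% of the Ctrl mean of Cnot3 and 46.9% of that of Trp53. Replicate 1 kept 6.82% and 6.41%, and replicate 3 kept 17.7% and 8.76%. Emx1, the gene whose expression pattern the Cre follows, was at 43.8 to 120.0 CPM in Ctrl, at 20.4 to 23.7 in cKO and at 7.94, 17.7 and 80.9 in dcKO replicates 1, 2 and 3. Its order in dcKO was not the order of Cnot3. Between dcKO and cKO the log2 fold change of Cnot3 was 0.67 ± 0.51 (95% interval -0.45 to 1.80), and it was -0.25 without dcKO replicate 2. The exons that remain after recombination could also give reads, which was not tested, so the share of Cnot3 reads left cannot be taken as the share of unrecombined cells. In bulk tissue, fewer cells of a type and less RNA per cell cannot be told apart.

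Cells outside the Emx1 lineage were present in the tissue. The summed level of 6 meningeal markers was 779.9 to 858 CPM in Ctrl, 452 to 694 in cKO and 324 to 518 in dcKO. The 5 endothelial markers summed to 189 to 247 CPM in Ctrl, 179 to 252 in cKO and 116 to 133 in dcKO. The 5 microglial markers summed to 28.1 to 35.0, 30.4 to 63.0 and 11.3 to 24.7 CPM. The 7 globin genes summed to 7630 to 11395 CPM in Ctrl, 9463 to 14389 in cKO and 4916 to 6722 in dcKO. Of the 8 subpallial and interneuron markers Nkx2-1 and Gsx2 had no read in any Ctrl or cKO embryo, and the list summed to 1.19 to 4.54 CPM in those groups. It summed to 2.17, 9.12 and 1.78 CPM in dcKO replicates 1, 2 and 3, with Gsx2 at 2.45 CPM in replicate 2. The 4 choroid plexus markers summed to 0.245 to 1.24 CPM in Ctrl, 8.17 to 40.7 in cKO and 3.98 to 61.9 in dcKO, and the 4 diencephalic markers to 49.6 to 58.6, 51.1 to 62.5 and 51.9 to 77.3 CPM. Most of the diencephalic sum came from Lhx9 (35.1 to 63.8 CPM over all embryos) and Tcf7l2 (7.30 to 14.0). Gbx2 was at 0.198 CPM or less and Barhl2 at 1.59 or less in every embryo. Which cells gave the Lhx9 and Tcf7l2 reads was not tested. The 6 markers of intermediate progenitors and neurons summed to 1099 to 1510 CPM in Ctrl, 783 to 1051 in cKO and 594 to 1382 in dcKO. Every endothelial, microglial and globin sum in dcKO was below every Ctrl and cKO sum, every sum of intermediate progenitor and neuron markers in cKO was below every Ctrl sum, every meningeal sum in either mutant was below every Ctrl sum, and every choroid plexus sum in either mutant was above every Ctrl sum. Not all members moved with their sums. Among the meningeal markers the collagens Col1a1, Col1a2 and Col3a1 were below Ctrl in every mutant embryo, while Dcn, Lum and Foxc1 overlapped Ctrl in both mutants. Tbr1, Eomes, Neurod1 and Neurog2 overlapped Ctrl in cKO, where only Tubb3 and Dcx of that list were below it. In dcKO only Hba-x of the 7 globin genes, Csf1r and Cx3cr1 of the 5 microglial markers, and the endothelial markers other than Cldn5 were below every Ctrl embryo, and the rest of these 3 lists overlapped Ctrl. Of the choroid plexus markers only Ttr was above every Ctrl embryo in all mutant embryos. Folr1 was above Ctrl in cKO but at 0.332 CPM in dcKO replicate 2, within the Ctrl range of 0.204 to 0.865. Kl and Cldn2 overlapped Ctrl in both mutants. What part these cells had in the remaining Cnot3 reads, or in the other levels below, was not tested. Of all 50-base stretches of Cnot3 exons, 13.5% also occur in other genes, mostly in the processed pseudogene Gm9207. That pseudogene was at 0.489 CPM or less in every embryo. The coding gene Leng1 overlaps Cnot3 on the opposite strand. Whether the counting used the strand of the reads is not given in the sources used here.

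Cnot2 (ENSMUSG00000020166.16, chr10:116485161-116581511, minus strand), the partner of Cnot3 in the NOT module, was above every Ctrl embryo in all 6 mutant embryos. It was at 118, 110.2 and 126 CPM in Ctrl, at 196, 192 and 195 in cKO and at 282, 190.2 and 156 in dcKO. The dcKO embryos were spread, and the cKO embryos lay within 1.02-fold of each other. In cKO the mean was 165% of Ctrl, a log2 fold change of 0.72 ± 0.21 (95% interval 0.25 to 1.19). The adjusted p was 0.0709 in edgeR over 9 embryos, 0.000104 in edgeR with the 6 embryos compared and 0.0291 in DESeq2. In dcKO the mean was 178% of Ctrl, a log2 fold change of 0.83 ± 0.21 (95% interval 0.36 to 1.30). There the adjusted p was 0.0540 in edgeR, 0.201 in edgeR with the 6 embryos compared and 0.0118 in DESeq2. Without dcKO replicate 1, 2 or 3 the log2 fold change of dcKO was 0.56, 0.89 or 1.00, and only the last passed both thresholds (adjusted p in edgeR 0.000837). The mutants differed by 0.11 ± 0.21 (95% interval -0.35 to 0.57). A correction for GC content brought the change down to 0.46 in cKO and to 0.42 in dcKO, with adjusted p-values in edgeR of 0.0676 and 0.120. The genes 5330438D12Rik and Gm49344 overlap Cnot2 on the opposite strand, so reads could be exchanged if strand was not used. Of all 50-base stretches of Cnot2 exons, 1.90% also occur in other genes, mostly in 5330438D12Rik.

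Ratios within an embryo need neither library scaling nor gene length, and they gave the same picture for the NOT module. Reads of Cnot2 were 0.294, 0.299 and 0.276 of those of Cnot1 in Ctrl. They were 0.514, 0.549 and 0.543 in cKO and 0.711, 0.333 and 0.540 in dcKO. Every mutant embryo was above every Ctrl embryo, with a ratio 1.85-fold that of Ctrl in cKO and 1.74-fold in dcKO as geometric means (exact permutation p = 0.1 for each, the smallest possible). Reads of Cnot3 were 0.293, 0.290 and 0.216 of those of Cnot1 in Ctrl, 0.0392, 0.0494 and 0.0406 in cKO and 0.0185, 0.0843 and 0.0658 in dcKO. Here every mutant embryo was below every Ctrl embryo (exact permutation p = 0.1).

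**Figure D4:**
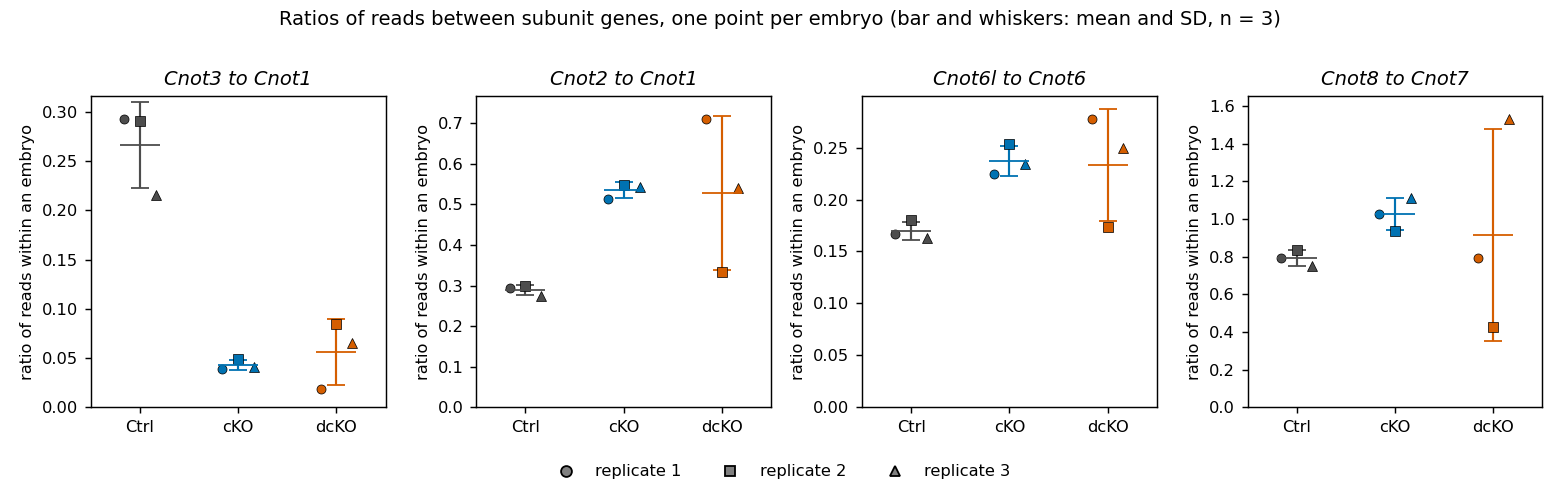
Ratio of reads between pairs of subunit genes within each embryo (y axis), with 1 point per embryo, a bar at the mean and whiskers for the SD, n = 3 per group. Cnot2 to Cnot1 is at 0.276 to 0.299 in Ctrl and at 0.333 or more in every mutant embryo, and Cnot6l to Cnot6 and Cnot8 to Cnot7 are above Ctrl in every cKO embryo.

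The scaffold Cnot1 (ENSMUSG00000036550.17, chr8:95719451-95807464, minus strand) overlapped Ctrl in both mutants. It was at 400.3, 368 and 456 CPM in Ctrl, at 382, 349 and 358 in cKO and at 397, 571 and 289 in dcKO. The log2 fold change was -0.17 ± 0.23 (95% interval -0.69 to 0.35) in cKO and 0.039 ± 0.23 (95% interval -0.48 to 0.56) in dcKO. These intervals leave room for a level between 0.622-fold and 1.27-fold of Ctrl in cKO. Without dcKO replicate 2, which had the highest level of all 9 embryos, the dcKO value was -0.25. Of all 50-base stretches of Cnot1 exons, 4.77% recur in other genes, mostly in the processed pseudogene Gm6158, which was at 5.34 to 5.52 CPM in Ctrl.

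Of the remaining structural subunits, Cnot9 was below and Cnot10 above Ctrl in every cKO embryo, neither past the test with 9 embryos, and Cnot11 overlapped Ctrl. Cnot9 (ENSMUSG00000026174.10, chr1:74506058-74530842, plus strand) was at 177, 177 and 176 CPM in Ctrl, at 148, 139.9 and 152 in cKO and at 165, 197 and 133 in dcKO. All cKO embryos were below all Ctrl embryos, with a log2 fold change of -0.27 ± 0.17 (95% interval -0.64 to 0.10) and an adjusted p of 0.328 in edgeR, 0.0123 in edgeR with the 6 embryos compared and 0.336 in DESeq2. In dcKO the embryos lay on both sides of Ctrl, and the change was -0.10 ± 0.17, or -0.25 without replicate 2. Cnot9 overlaps the coding gene Usp37 on the opposite strand, so that reads of either could be exchanged if strand was not used.

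Cnot10 (ENSMUSG00000056167.9, chr9:114585878-114640184, minus strand) was at 76.3, 76.9 and 79.0 CPM in Ctrl, at 90.0, 81.2 and 92.1 in cKO and at 90.8, 66.6 and 102 in dcKO. Its cKO embryos were all above Ctrl, by a log2 fold change of 0.18 ± 0.18 (95% interval -0.22 to 0.58), which did not pass the test with 9 or 6 embryos (adjusted p in edgeR 0.542 and 0.111). In dcKO the change was 0.16 ± 0.18, or 0.31 without replicate 2, the dcKO embryo below Ctrl. Cnot11 (ENSMUSG00000003135.16, chr1:39534992-39546889, plus strand) was at 69.8, 72.4 and 73.0 CPM in Ctrl, at 81.0, 62.2 and 69.3 in cKO and at 72.4, 86.6 and 63.5 in dcKO. Both mutant groups overlapped Ctrl, and the log2 fold changes were -0.017 ± 0.17 (95% interval -0.40 to 0.37) and 0.048 ± 0.17 (95% interval -0.34 to 0.44), the latter -0.083 without dcKO replicate 2.

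Among the deadenylases of the CCR4 type, Cnot6 (ENSMUSG00000020362.14, chr11:49671503-49712723, minus strand) was below Ctrl in every cKO embryo but did not pass the test with 9 embryos, and Cnot6l differed less. Cnot6 was at 292, 288 and 301 CPM in Ctrl, at 211, 189 and 206 in cKO and at 281, 607 and 136 in dcKO. In cKO its mean was 68.7% of Ctrl, and all 3 embryos were below the lowest Ctrl embryo. The log2 fold change was -0.54, with an SE of 0.41 over 9 embryos (adjusted p in edgeR 0.422) and of 0.077 with the 6 embryos compared (adjusted p in edgeR 0.000369). DESeq2 gave an adjusted p of 0.400. In dcKO the level ran from 46.3% of the Ctrl mean in replicate 3 to 207% in replicate 2, and the change of 0.22 ± 0.41 (95% interval -0.69 to 1.12) was -0.50 without replicate 2. Between dcKO and cKO the log2 fold change of Cnot6 was 0.76 ± 0.41 (95% interval -0.15 to 1.67), and it rested on dcKO replicate 2. It was 0.048 without replicate 2 (adjusted p in edgeR 0.9997) and 1.14 without replicate 3, past both thresholds (adjusted p in edgeR 0.0156). Against Ctrl it was 0.60 without replicate 3.

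Cnot6l (ENSMUSG00000034724.19, chr5:96070333-96164171, minus strand) was at 48.9, 51.7 and 49.2 CPM in Ctrl, at 47.4, 47.9 and 48.1 in cKO and at 78.0, 105 and 33.9 in dcKO. Its cKO embryos were below Ctrl by a log2 fold change of only -0.063 ± 0.32 (95% interval -0.78 to 0.66). In dcKO the change was 0.54 ± 0.32 (95% interval -0.18 to 1.26), with replicates 1 and 2 above and replicate 3 below every Ctrl embryo, and it was 0.16 without replicate 2. Without replicate 3 it was 0.88 against Ctrl (adjusted p in edgeR 0.00110) and 0.94 against cKO (0.0138), both under the fold limit of a call. Against cKO it was 0.23 without replicate 2. Reads of Cnot6l relative to Cnot6 within an embryo were 0.167, 0.180 and 0.163 in Ctrl and 0.225, 0.253 and 0.234 in cKO. Every cKO embryo was above every Ctrl embryo, by 1.39-fold (exact permutation p = 0.1). In dcKO the ratios were 0.278, 0.173 and 0.2498 and overlapped Ctrl (exact permutation p = 0.2). Per length of exon, Cnot6l made up 9.47% to 10.3% of the summed reads of the pair in Ctrl and 12.6% to 14.0% in cKO.

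Of the CAF1-type deadenylases, Cnot7 (ENSMUSG00000031601.17, chr8:40492540-40515847, minus strand) was at 105, 99.97 and 113 CPM in Ctrl, at 94.7, 92.9 and 92.4 in cKO and at 124, 227 and 70.9 in dcKO. Its cKO embryos were all below Ctrl, with a log2 fold change of -0.18 ± 0.33 (95% interval -0.92 to 0.55) and an adjusted p of 0.754 in edgeR and of 0.0827 in edgeR with the 6 embryos compared. In dcKO the change was 0.41 ± 0.33 (95% interval -0.33 to 1.14), again with replicate 3 below and the others above Ctrl, and it was -0.13 without replicate 2. Without replicate 3 it was 0.72 against Ctrl (adjusted p in edgeR 0.0150) and 0.91 against cKO (0.0168), again under the fold limit. Against cKO it was 0.060 without replicate 2. Cnot7 overlaps Vps37a and Zdhhc2 on the opposite strand. Its paralog Cnot8 (ENSMUSG00000020515.14, chr11:58104153-58118594, plus strand) was at 83.7, 83.6 and 84.7 CPM in Ctrl, at 97.4, 87.2 and 103 in cKO and at 97.8, 96.9 and 109 in dcKO. All 6 mutant embryos were above all Ctrl embryos, and Cnot8 was the gene with the smallest spread in dcKO. The log2 fold change was 0.19 ± 0.14 (95% interval -0.13 to 0.51) in cKO and 0.27 ± 0.14 (95% interval -0.049 to 0.58) in dcKO, with adjusted p-values in edgeR of 0.422 and 0.236. Without dcKO replicate 2 the dcKO value was 0.29.

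Reads of Cnot8 relative to Cnot7 were 0.796, 0.836 and 0.750 in Ctrl and 1.03, 0.938 and 1.11 in cKO, a ratio 1.29-fold that of Ctrl with no overlap (exact permutation p = 0.1). In dcKO they were 0.791, 0.428 and 1.53, and the mean ratio was 1.01-fold that of Ctrl (exact permutation p = 1.0). Both pairs are similar enough in sequence to ask whether reads could be assigned to the wrong member. Their coding sequences were 73.6% identical for Cnot6 and Cnot6l and 72.3% identical for Cnot7 and Cnot8, with no identical run longer than 20 bases in either pair. For Cnot8, 7.82% of 50-base stretches of its exons recur in other genes, mostly in the processed pseudogene Gm18860, which was at 0.843 CPM or less in every embryo.

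Counted over the 10 genes, the cKO embryos were all above Ctrl for 3 genes (Cnot2, Cnot8 and Cnot10), where 29.2% of all tested genes did the same. They were all below Ctrl for 5 genes (Cnot3, Cnot6, Cnot6l, Cnot7 and Cnot9), against 28.0% of tested genes. These counts are of CPM, and the split depended on that scaling. As TPM, the cKO embryos of Cnot6l and Cnot11 were also all above Ctrl, and those of Cnot7 overlapped it. The TPM split was thus 5 genes above and 3 below (Cnot3, Cnot6 and Cnot9). The shares of tested genes given here are those of CPM. In dcKO 2 genes (Cnot2 and Cnot8) were above all Ctrl embryos, against 15.6%, and Cnot3 alone was below, against 11.2%. No gene separated dcKO from cKO, where 2.62% of tested genes were all higher and 3.63% all lower in dcKO. A rule with no limit on fold, chosen after the data were seen, gave more calls. With the 6 embryos compared, edgeR at an adjusted p under 0.05 called 4 of the 10 genes in cKO (Cnot2 higher, Cnot3, Cnot6 and Cnot9 lower), beside 47.2% of the tested genes. In dcKO the same rule called none of the 10 and 0.0% of the tested genes. DESeq2 over 9 embryos called Cnot2 and Cnot3 in each mutant, beside 16.7% of the tested genes in cKO and 17.7% in dcKO. The count of 4 in cKO was close to the share of all tested genes, and no statement particular to the 10 genes is drawn from it.

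In dcKO replicate 2, the high values of Cnot6, Cnot6l and Cnot7 were near those of other genes of low GC content, and in replicate 3 these 3 genes were below such genes. The longest transcripts of these 3 genes have a GC content of 39.8%, 37.6% and 38.2%. In dcKO replicate 2 they were at 207%, 211% and 214% of the Ctrl mean. The 833 tested genes with under 40% GC had a median log2 ratio to the Ctrl mean of 1.05 in that embryo, 0.66 in replicate 1 and -0.16 in replicate 3. The 6374 genes with 50% GC or more, among them Cnot3 and Cnot11, had medians of -0.73, -0.64 and 0.11 in the same order of embryos. For the 2719 genes from 40% to 45% GC, where Cnot2 lies at 43.9%, the medians were 0.75, 0.54 and -0.061. Cnot2 was at 0.69, 1.26 and 0.41 in the same order of embryos, so below its class in replicate 2 and above it in replicates 1 and 3. In cKO Cnot2 was at 0.73, 0.70 and 0.72, where its class stood at 0.23, 0.16 and 0.24. The levels of Cnot6, Cnot6l and Cnot7 in replicate 2 were thus near the middle of their class. In replicate 3 their log2 ratios of -1.11, -0.56 and -0.58 were below it. In replicate 1 Cnot6 at -0.063 and Cnot7 at 0.22 were below the class, and Cnot6l at 0.64 was near it. In cKO the class under 40% GC stood 0.19, 0.14 and 0.25 above Ctrl, whereas Cnot6 and Cnot7 were below Ctrl in every cKO embryo. After a correction for GC content the dcKO log2 fold changes became -0.44 for Cnot6, -0.13 for Cnot6l and -0.24 for Cnot7, each the reverse of the uncorrected direction, with adjusted p-values in edgeR of 0.270, 0.604 and 0.339. In cKO the same correction gave -0.79 for Cnot6 with an adjusted p of 0.0584 in edgeR. What part GC content had in the dcKO values was not tested.

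**Figure D5:**
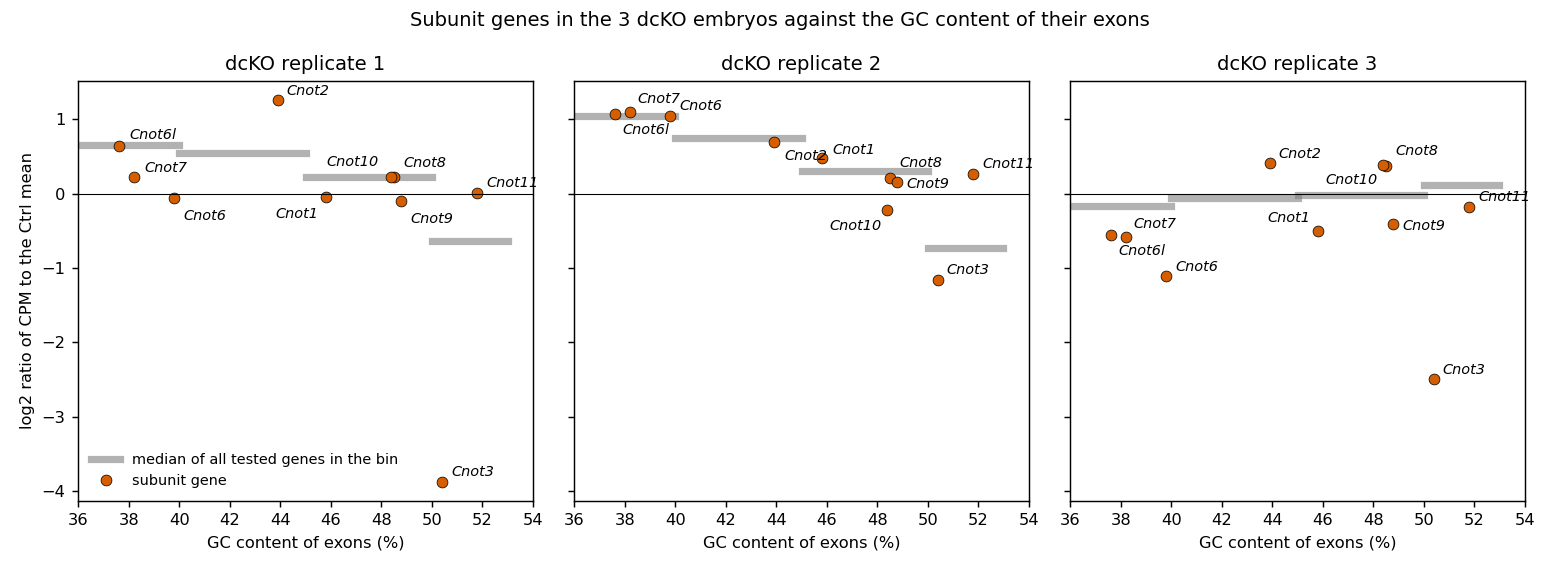
Log2 ratio of CPM to the Ctrl mean (y axis) against the GC content of exons, taken from the longest transcript (x axis), for the 10 genes in each dcKO embryo, with grey lines for the median of all tested genes in 4 classes of GC content. Cnot6, Cnot6l and Cnot7 lie at about 1 beside their class median of 1.05 in replicate 2 and below 0 in replicate 3, and Cnot3 lies below its class in all 3 embryos.

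Deadenylases outside the complex were counted for comparison. PAN2 and PAN3 form the other cytoplasmic deadenylase of the cell, PARN trims tails of small noncoding RNAs, and NOCT is a relative of the CCR4 type that acts on a dinucleotide cofactor. All 8 genes of this list (Pan2, Pan3, Parn, Toe1, Pde12, Angel1, Angel2 and Noct) were tested, and edgeR called none in any comparison. At an unadjusted p under 0.05, 1 of the 8 genes (Parn) was counted in each mutant against Ctrl, beside 27.0% and 29.2% of all tested genes. With the 6 embryos compared, edgeR at any fold called 2 in cKO, Parn higher and Pan3 lower, beside 47.2% of tested genes, and DESeq2 called none at any fold. The median log2 fold change was -0.015 in cKO and 0.010 in dcKO. Parn was at 52.5, 52.9 and 56.0 CPM in Ctrl, at 88.4, 71.5 and 83.8 in cKO and at 111, 55.1 and 86.8 in dcKO. All cKO embryos were above Ctrl, with a log2 fold change of 0.60 ± 0.24 (adjusted p 0.143 in edgeR, 0.00103 in edgeR with the 6 embryos compared). In dcKO the change was 0.65 ± 0.24, and replicate 2 overlapped Ctrl. Noct differed from Ctrl by -0.37 ± 0.23 in cKO and -0.31 ± 0.22 in dcKO, and Pan3 by -0.33 ± 0.38 and 0.24 ± 0.38.

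Partners that bind the complex or bring it to mRNAs were counted in the same way. All 11 genes (Cnot4, Tob1, Tob2, Btg1, Btg2, Btg3, Ddx6, Eif4enif1, Tnrc6a, Tnrc6b and Tnrc6c) were tested, and edgeR called none in any comparison. At an unadjusted p under 0.05 the count was 3 of 11 in cKO and 4 of 11 in dcKO, beside the same 27.0% and 29.2% of tested genes. In cKO no partner was above all Ctrl embryos and 5 were below, where 29.2% and 28.0% of tested genes were. In dcKO 2 were above and 2 below, where 15.6% and 11.2% of tested genes were. With the 6 embryos compared, edgeR at any fold called 5 in cKO, each of them lower, beside 47.2% of tested genes, and none in dcKO. DESeq2 at any fold called 2 in cKO, Tnrc6c and Tob2, and 1 in dcKO, Tnrc6c, beside 16.7% and 17.7% of tested genes. Tnrc6c, a GW182 protein that links microRNA-bound Argonaute to CCR4-NOT, was at 103, 89.8 and 86.6 CPM in Ctrl, at 48.7, 46.9 and 42.7 in cKO and at 35.5, 75.9 and 53.9 in dcKO. Every mutant embryo was below every Ctrl embryo. Its log2 fold change was -1.01 ± 0.25 in cKO (adjusted p 0.0549 in edgeR, 0.00546 in DESeq2) and -0.76 ± 0.25 in dcKO (0.0881 in edgeR, 0.0375 in DESeq2). In cKO Tnrc6c passed both limits of a call in DESeq2 (-1.02), as 8.82% of tested genes did. It also passed both in edgeR with the 6 embryos compared (-1.02, adjusted p 6.08e-05), where 1850 genes were called.

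Ddx6, a helicase of mRNA repression that binds CNOT1, was at 424, 424 and 428 CPM in Ctrl, at 241, 243 and 252 in cKO and at 301, 658 and 208 in dcKO. The cKO embryos were all below Ctrl, by a log2 fold change of -0.79 ± 0.34 (adjusted p 0.172 in edgeR, 4.06e-05 in edgeR with the 6 embryos compared), and the dcKO embryos lay on both sides of it, as those of Cnot6 did. Tob2, an antiproliferative protein that binds CNOT7 and CNOT8, differed by -0.65 ± 0.21 in cKO (adjusted p 0.0871 in edgeR, 0.0236 in DESeq2). In dcKO the other partners with the largest differences were Btg3 at 0.66 ± 0.26 and Btg1 at 0.51 ± 0.16, relatives of the TOB proteins that also bind CNOT7 and CNOT8. Their adjusted p-values in edgeR were 0.134 and 0.0820.

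The tested genes with profiles most like that of Cnot3 over the 9 embryos lay outside the complex. Likeness was measured as the root-mean-square difference between log2 CPM profiles after centring each on its own mean, with Cnot3 itself spread by 1.41 around its mean. Among the nearest genes were Inhbb at 0.405, an inhibin subunit, Robo3 at 0.429, an axon guidance receptor, Aoc2 at 0.444, an amine oxidase, and Zbtb12 at 0.459, a zinc finger gene. The median over all tested genes was 1.45. The other subunits lay between 1.26 (Cnot6) and 1.79 (Cnot2), so Cnot2 was the least like Cnot3 among them. Inhbb, for example, was at 25.1, 23.8 and 15.6 CPM in Ctrl, at 4.196, 4.46 and 2.98 in cKO and at 1.97, 7.69 and 7.86 in dcKO. Like Cnot3 it was below Ctrl in all 6 mutant embryos and lowest in replicate 1 among the dcKO embryos. These genes were selected for this likeness, and no test was made of it.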

How the data were processed

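Poly(A) RNA from the cortex of 9 single embryos was sequenced with stranded libraries. The authors trimmed adapters with Cutadapt, used STAR for alignment of the paired reads to mm39 and featureCounts to assign them to genes, and they deposited these raw counts with no filter or normalization. Per the labels, each embryo has 1 genotype and 1 replicate number. Genes that had over 10 reads in each embryo were tested in R 4.3.3 with edgeR 4.0.16 (TMM factors, quasi-likelihood test, 9 embryos, no covariates), and limma 3.58.1 and DESeq2 1.42.0, which the study used, served as alternatives. Intervals of log2 fold changes use the standard error and the total degrees of freedom. Ratios were taken from the raw counts with nothing added to them. The procedure was checked on simulated data with equal spread in all groups, so the check does not cover the wider spread of dcKO. No mm39 annotation was used here: lengths, GC content and positions came from GENCODE M21 on GRCm38, matched by gene identifier without version (52081 of 57010 genes, and 13561 of the tested genes had a GC value). GC content was that of a gene's longest transcript, and it was corrected by loess with a span of 0.3 in each embryo.

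The 10 genes, the other lists and the tests were chosen with earlier results of these data known. Besides the 10 genes and Trp53, the text names the 3 genes of each of the other lists with the largest absolute log2 fold change in each mutant, the 5 genes most like Cnot3, of which 1 is not reported here, and the genes of marker lists. Alternatives were RLE factors, DESeq2, limma voom with quality weights, other filters, the 6 embryos compared, each embryo left out, a replicate block alone or together with the GC correction, the number in the embryo code as a block, another length and TPM. The calls at any fold were added after seeing the data. The RT-qPCR values were not analysed here.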

Additional observations from a re-analysis of the deposited data

How the results depend on the processing

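The direction of Cnot3 and Cnot2 against Ctrl held under every alternative run, while their side of the threshold did not. In cKO the number of all genes called was 2 over 9 embryos in edgeR and became 1206 in DESeq2, 1868 in limma voom with quality weights, 813 with no filter, 647 with the GC correction, 1986 with the embryo code as block, 1850 with the 6 embryos compared, 6654 with those at any fold and 2280 in DESeq2 at any fold. Of the 10 genes these called 1 each (Cnot3), 4 with the 6 embryos at any fold and 2 in DESeq2 at any fold. In dcKO 0 genes became 1157 in DESeq2, 3668 in voom, 692 with no filter, 175 with the GC correction, 1633 with the embryo code as block and 2426 in DESeq2 at any fold. There voom called 2 of the 10 genes (Cnot2 and Cnot3), the embryo code block 2 (Cnot3 and Cnot6), DESeq2 and no filter 1, and DESeq2 at any fold 2. Between dcKO and cKO 2 genes became 52 in DESeq2, 27 in voom, 8 with no filter, 6 with the GC correction, 1583 with the embryo code as block, 0 with the 6 embryos compared at either fold rule and 59 in DESeq2 at any fold. None of these called any of the 10 genes there. Why the counts differ was not tested.

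In the fit with the embryo code as block, the only dcKO embryo that shares a code number with another group is replicate 3, with Ctrl replicate 3, and cKO replicates 2 and 3 share numbers with Ctrl replicates 1 and 2. Its dcKO values and calls thus rest on 1 dcKO embryo, taken to vary like the others, those of cKO on 2, and no number is shared between dcKO and cKO, so they say nothing of how stable the group differences are.

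The log2 fold change of Cnot3 in cKO passed the threshold at -2.80 in DESeq2, -2.81 in voom, -2.84 with no filter, -2.86 with the GC correction, -2.82 with the embryo code as block and -2.79 with the 6 embryos. In dcKO it passed at -2.13 in DESeq2, -3.54 in voom and -2.23 with no filter, and the fit with the embryo code as block gave -2.37 for dcKO replicate 3.

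Labels give the groups the same replicate numbers. Correlations of the deviations of same-numbered embryos ran from -0.54 to 0.13 over 9 pairs, so the numbers did not pair the embryos. With the replicate block the counts of calls were 0 in cKO, 0 in dcKO and 0 between mutants, and with the replicate block and GC correction 4, 0 and 6, with none of the 10 genes called.

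Directions turned as follows, with the values under the embryo code block those of dcKO replicate 3, and the cause of the others was not tested. In voom they turned for Cnot11 in cKO (0.036), Cnot6 in dcKO (-0.035) and, between mutants, Cnot3 (-0.72), Cnot10 (0.00544) and Cnot11 (-0.016). In dcKO against Ctrl, Cnot1 was -0.067 with no filter, -0.051 with filterByExpr, -0.30 and -0.28 with the GC correction with and without the replicate block, -0.66 with the embryo code as block and -0.016 with the 6 embryos. The GC correction with the replicate block, without it, and the embryo code block gave -0.50, -0.44 and -1.15 for Cnot6, -0.13, -0.13 and -0.53 for Cnot6l, and -0.26, -0.24 and -0.67 for Cnot7. Cnot10 was -0.00128 with block and GC correction. Cnot11 was -0.052 with no filter, -0.037 with filterByExpr, -0.20 with the embryo code as block and -0.00276 with the 6 embryos. Between mutants Cnot2 was -0.061 and -0.043 with the GC correction with and without the block. With the embryo code as block the mutants differed by -0.54 (Cnot1), -0.45 (Cnot2), -0.59 (Cnot6), -0.47 (Cnot6l), -0.52 (Cnot7), -0.13 (Cnot9), 0.19 (Cnot10) and -0.090 (Cnot11). As TPM, the cKO mean was above the Ctrl mean for Cnot1 (70.8 and 68.4), Cnot6l (15.5 and 13.9), Cnot7 (53.7 and 52.4) and Cnot11 (67.6 and 58.8). The dcKO mean was above Ctrl for Cnot9 (132.9 and 132.7) and below cKO for Cnot8 (119.7 and 121.4) and Cnot11 (65.3 and 67.6).

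Leaving out 1 embryo at a time gave 0 to 1476 calls in cKO, 0 to 3252 in dcKO and 0 to 1241 between mutants, and 0 to 1, 0 to 2 and 0 to 1 of the 10 genes. All calls in cKO among the 10 (Cnot3) came when a dcKO embryo was left out. Without dcKO replicate 3, Cnot2 and Cnot3 were called in dcKO and Cnot6 between mutants (1.14, but 0.048 without dcKO replicate 2). Log2 fold changes of Cnot3 ran from -2.86 to -2.72 in cKO, -3.04 to -1.67 in dcKO and -0.25 to 1.11 between mutants. In cKO Cnot11 ran from -0.12 to 0.069. In dcKO the ranges were -0.25 to 0.25 for Cnot1, -0.50 to 0.60 for Cnot6, 0.16 to 0.88 for Cnot6l, -0.13 to 0.72 for Cnot7, -0.25 to 0.032 for Cnot9 and -0.083 to 0.15 for Cnot11. Between mutants they were -0.081 to 0.42 for Cnot1, -0.16 to 0.28 for Cnot2, 0.048 to 1.14 for Cnot6, 0.23 to 0.94 for Cnot6l, 0.060 to 0.91 for Cnot7, -0.16 to 0.13 for Cnot10 and -0.061 to 0.17 for Cnot11. Log2 ratios of Cnot6l to Cnot6 ran from -0.19 to 0.15 between mutants, of Cnot8 to Cnot7 from -0.45 to 0.47 in dcKO and -0.81 to 0.11 between mutants, and, between mutants, of Cnot3 to Cnot1 from -0.30 to 0.80 and of Cnot2 to Cnot1 from -0.34 to 0.21. With the longest transcript as length 4 genes kept their rank.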
